A study of Mus musculus with 3 samples.

Results

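The back skin of interleukin-10 (IL-10) knockout mice fed powdered eggshell membrane (KOE) was compared with that of wild-type mice (WT) on 2 of the 3 arrays of the series, 1 array of pooled RNA per group. WT were male C57BL/6J mice on an AIN-93-based diet. KOE were male IL-10 knockout mice on a diet supplemented with 8% powdered eggshell membrane (pESM), and KO, the remaining array, were male knockout mice on the AIN-93-based diet without pESM. The knockout line B6.129P2-IL-10<tm1Cgn>/J had been crossed with C57BL/6J and second-generation males were used, while the WT mice were C57BL/6J, and no source used here calls them littermates. Feeding began at 4 weeks of age and lasted 28 weeks, in groups of 5 WT, 7 KO and 6 KOE mice, and dermal white adipose tissue was taken off the skin before RNA was prepared. KOE and WT differed in genotype, in breeding and in diet, and these cannot be told apart in this comparison, and KO values are therefore given alongside. Which mice entered each pool, the hair cycle stage of the skin and the time of day of collection are not given in the sources used here.

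All 45037 probe sets other than the AFFX controls were read. They gave 18193 genes with a name, of which 13326 reached a signal of 40 in both arrays and hence have a ratio. Of these genes, 1140 (8.55%) were at least 1.5-fold higher in KOE than in WT and 1043 (7.83%) were at least 1.5-fold lower, and the median log2 ratio was 0.04. A further 626 genes reached 40 in WT alone and 832 in KOE alone. The words higher and lower are used below for genes past 1.5-fold with 40 in both arrays, and values are given for others. Every count of a gene list below is to be read beside the shares over all genes, 8.55% higher and 7.83% lower. The tails were unequal: 94 genes were at least 4-fold lower and 8 at least 4-fold higher. With 1 array per group there is no replicate check and no test, so each value describes these pools and not the mice within a group. Among 6309 genes with a second probe set at 40 or more in both arrays, the log2 ratios of the 2 strongest probe sets differed with an SD of 0.43. Of the 397 higher genes among them, 179 were also higher at the second probe set, and 184 of 396 lower genes were also lower there. The split between directions depended on scaling. As deposited, 52.2% of the genes past 1.5-fold were higher. With the arrays set to equal medians, which moved the median log2 ratio by 0.11, the share was 67.8%.

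The pools can differ in the makeup of the skin as well as in the RNA of its cells, and in bulk RNA fewer cells of a type and less RNA per cell cannot be told apart. The skin markers were in place in each array. Krt5 and Krt14, keratins of basal keratinocytes, had signals of 19214, 23513 and 24499 and 20926, 21861 and 22649.7 in WT, KO and KOE in that order, and the fibroblast genes Col1a2 and Dcn had 30904, 26024 and 33069 and 32742, 32111 and 30539. The 3′ to 5′ signal ratio of the Gapdh control probe sets was 0.728 in WT and 0.766 in KOE, and that of the β-actin controls was 1.59 and 1.56. Il10, the gene altered in the knockout, has a single probe set, which had 401 in KOE against 17.0 in WT and 679.9 in KO. Whether it detects transcript of the mutant allele was not tested, so its signal is no check of the knockout.

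**Figure D1:**
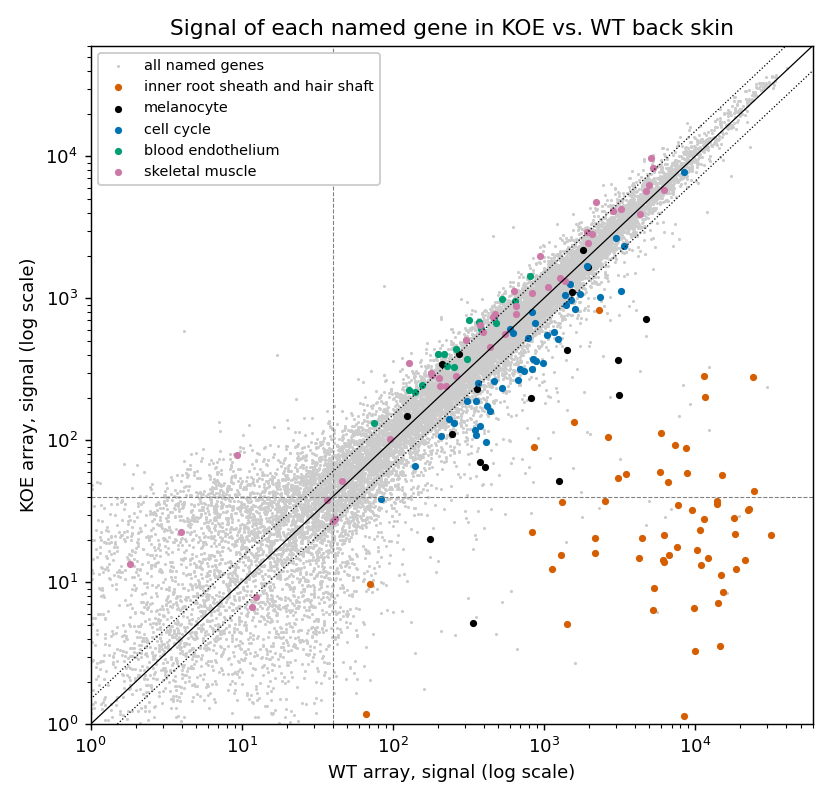
Signal of each named gene in KOE against WT on log axes that begin at 1, from 1 array of pooled RNA per group. The solid line marks equal signals, dotted lines 1.5-fold and dashed lines a signal of 40. The 59 inner root sheath and hair shaft genes lie far below the line, with signals up to 31928 in WT and none above 831 in KOE.

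Hair follicles pass through growth (anagen), regression (catagen) and rest (telogen). In anagen, dividing matrix cells at the base of the follicle give rise to the hair shaft, built of hair keratins and keratin-associated proteins, and to the inner root sheath around it, and melanocytes pass pigment to the shaft. Bulge stem cells persist through all stages. Epidermis, dermis and their vessels, muscle and immune cells make up the rest of the sample.

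The largest differences between KOE and WT lay in the structural genes of the growing hair. The inner root sheath, hair shaft keratin and keratin-associated protein lists held 59 measured genes, and all 59 reached 40 in WT, where their median signal was 7713. In KOE the median was 22.0. Of these genes 17 had a ratio, each of them lower, from 2.80-fold for Krt32 to 567-fold for Krtap8-1, and the other 42 were under 40 in KOE. A median over the 17 alone leaves out genes that were under 40 in KOE. Together the 59 genes made up 2.83% of the summed signal of all named genes in WT, 0.0219% in KO and 0.017% in KOE.

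The promoters of 3 of these genes are shown first, 1 from each list, because the letters TATAAA recur in many promoters of these lists. Each stretch is the RefSeq promoter window of GRCm38.p6, 250 bases before to 50 bases after the annotated start, written 5′ to 3′ along the gene, with the letters TATAAA, the core of a TATA box, in capitals. Krt25 lies at chr11:99322902-99323201, Krt31 at chr11:100050502-100050801 and Krtap8-1 at chr16:89487903-89488202, all on the minus strand.
Krt25: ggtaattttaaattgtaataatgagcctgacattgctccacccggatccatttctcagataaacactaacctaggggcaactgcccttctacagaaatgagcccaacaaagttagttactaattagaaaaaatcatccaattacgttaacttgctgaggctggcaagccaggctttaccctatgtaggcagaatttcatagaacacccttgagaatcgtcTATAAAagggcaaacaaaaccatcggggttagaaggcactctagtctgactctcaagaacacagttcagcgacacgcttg
Krt31: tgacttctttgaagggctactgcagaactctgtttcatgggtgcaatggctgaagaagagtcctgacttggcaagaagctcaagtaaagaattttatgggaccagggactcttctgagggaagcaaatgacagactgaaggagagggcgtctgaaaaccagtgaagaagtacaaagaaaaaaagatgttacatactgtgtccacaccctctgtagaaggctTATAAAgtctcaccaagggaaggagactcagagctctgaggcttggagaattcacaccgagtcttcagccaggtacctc
Krtap8-1: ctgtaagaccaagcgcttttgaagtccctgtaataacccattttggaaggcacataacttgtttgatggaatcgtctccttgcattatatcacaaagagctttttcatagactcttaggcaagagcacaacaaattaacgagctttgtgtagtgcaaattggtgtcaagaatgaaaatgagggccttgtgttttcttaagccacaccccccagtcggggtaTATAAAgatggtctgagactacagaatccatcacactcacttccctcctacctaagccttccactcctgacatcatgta
In these windows TATAAA began 30 bases before the start of Krt25, and 29 bases before those of Krt31 and Krtap8-1. Of the 59 genes, 52 had a promoter window, and 41 of them held TATAAA on either strand, against 15.7% of the 27025 genes with a window and 9.65% of the genes with a ratio. Read along the gene and starting 20 to 40 bases before its start, it was held by 29 of the 52, against 2.41% of all genes. By list these were 5 of 9 inner root sheath genes, 3 of 7 hair shaft keratins and 21 of 36 keratin-associated proteins. Among cell cycle genes, which were also lower in KOE, it was 0 of 36, and among cornified envelope genes, which went both ways, 15 of 38. On either strand and anywhere in the window, TATAAA was also frequent outside the hair lists, in 44.7% of cornified envelope genes, 4 of 8 genes of matricellular proteins, 6 of 14 of matrix proteases and inhibitors and 15 of 39 of cytokines and chemokines. Keratin-associated protein genes are tandem copies, so their promoters are not independent of each other, and a match of letters is a description and not a measured site.

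Among inner root sheath genes, Krt25 had a signal of 21.4 in KOE against 31928 in WT and 51.5 in KO, at least 798-fold lower in KOE when the KOE signal is set to the limit of 40. Krt27 and Krt71, keratins of the same sheath, had 21299.9, 60.7 and 14.4 and 18156, 81.5 and 28.2 in WT, KO and KOE. Tchh, which encodes trichohyalin, the protein that hardens the sheath, had 278 in KOE against 24308 in WT and 279 in KO and was 87.4-fold lower. Padi3, an enzyme that modifies trichohyalin, had 14.4 in KOE against 6189 in WT and 21.0 in KO. All 9 measured genes of the list stood at or above 6189 in WT, and none was above 278 in KOE.

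Hair shaft keratins followed the same pattern with 1 exception in size. Krt31, a cortex keratin, had 50.8 in KOE against 6623 in WT and 40.7 in KO, a 130.3-fold difference. Krt81 and Krt83, type II hair keratins, were 40.6-fold and 98.0-fold lower. Krt32, a keratin of the hair cuticle, differed least in this list, with 831 in KOE against 2323 in WT and 1631 in KO. Among keratin-associated proteins, which link the keratin filaments of the shaft, Krtap8-1 had 43.7 in KOE against 24756 in WT and 63.2 in KO, the lowest of all genes with a ratio. Krtap11-1 had 57.2 in KOE against 15181 in WT and 5.48 in KO and Krtap3-1 59.1 in KOE against 8831 in WT and 36.9 in KO. Krtap22-2, Krtap15 and Krtap6-5 had WT signals of 22914, 22309.9 and 18609 and KOE signals of 32.8, 32.3 and 12.5, so that they lay at least 573-fold, 558-fold and 465-fold lower. Near-identical family members can share probes, and single family members are uncertain for that reason. Outside these lists, the 15 lowest ratios included Prr9 (239 in KOE against 30150.2 in WT and 215 in KO), S100a3 (119 in KOE against 12353 in WT and 72.1 in KO), a calcium-binding protein of the hair cuticle, and Gjb2 (149 in KOE against 7891 in WT and 148 in KO), which encodes a connexin, a protein of gap junctions 26.

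Regulators of the hair matrix were lower in part. Of 30 with a ratio, 14 were lower and 1 higher, with a median log2 ratio of −0.48. Shh, the signal that matrix cells send to their surroundings, had 59.1 in KOE against 748 in WT and 18.2 in KO. Hoxc13 and Foxn1, transcription factors that drive hair keratin genes, had 319 in KOE against 1650.2 in WT and 259 in KO for Hoxc13, and 164 in KOE against 713 in WT and 126 in KO for Foxn1. Lef1, the nuclear partner of Wnt signaling in the matrix, had 256 in KOE against 972 in WT and 186 in KO, and Wnt5a, a Wnt ligand of the follicle, had 522 in KOE against 1163 in WT and 514 in KO. Msx2 and Dlx3, homeobox factors of the matrix, were 5.62-fold and 5.18-fold lower. The 1 higher gene was Bmp2, a ligand that restrains follicle growth, with 2126 in KOE against 1272 in WT and 2163 in KO. Gata3, a factor of the inner root sheath that is also made by epidermis and lymphocytes, had 3608 in KOE against 2751 in WT and 3472 in KO.

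Genes of the resting follicle differed less, and in both directions. Of 21 bulge and resting follicle genes, 4 were higher and 3 lower, and 7 were higher with all probe sets of a gene averaged. The bulge keratin gene Krt15 had 31032 in KOE against 25179.8 in WT and 30938 in KO, under 1.5-fold. Fgf18 and Bmp6, signals that hold the follicle at rest, had 437 in KOE against 165 in WT and 407 in KO for Fgf18, and 370.0 in KOE against 178 in WT and 217 in KO for Bmp6, which put them 2.65-fold and 2.08-fold higher. Nfatc1 and Lgr6, of resting stem cells and the upper follicle, were 1.81-fold and 1.86-fold higher. Lgr5, a receptor of stem and germ cells of the lower follicle, was 1.54-fold lower, and Krt75, a keratin of the companion layer next to the inner root sheath, 2.22-fold lower. Of 15 dermal papilla genes, 4 were higher and 3 lower. Sox2, a factor of some dermal papillae and of Merkel cells, had 175 in KOE against 40.9 in WT and 104 in KO, close to the limit of 40 in WT. Corin, a protease of the papilla in anagen, had 21.4 in KOE against 348 in WT and 2.24 in KO, and Vcan, a proteoglycan of the anagen papilla, was 2.03-fold lower.

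Melanocyte genes were lower in KOE for the most part. Of 16 with a ratio 10 were lower and 1 higher, with a median log2 ratio of −1.44, and 2 more, Trpm1 and Gpr143, were under 40 in KOE. The median was −0.66 over the 13 genes with 100 in both arrays, and −1.88 with signals under 40 set to 40. Tyr, the enzyme that starts melanin synthesis, had 51.9 in KOE against 1266 in WT and 32.9 in KO, a 24.4-fold difference. Tyrp1 and Dct, which act after it, had 210.2 in KOE against 3125 in WT and 127 in KO for Tyrp1, and 718 in KOE against 4761 in WT and 285 in KO for Dct. Pmel, the fibril protein of the pigment granule, had 370.1 in KOE against 3117 in WT and 129 in KO. Pigment genes thus had KOE signals above those of KO for Tyr, Tyrp1, Dct and Pmel, and all were far under WT. Kit, the receptor that melanocytes and mast cells need, was 1.58-fold lower, while Sox10, a factor of melanocytes and Schwann cells, was 1.63-fold higher, with 344 in KOE against 211 in WT and 310.4 in KO.

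Cell cycle genes were lower as well. Of 42 with a ratio, 30 were lower and 0 higher, with a median log2 ratio of −0.94. Bub1, a kinase of the spindle checkpoint, had 97.8 in KOE against 417 in WT and 168 in KO, and Kif11, a spindle motor, had 109.9 in KOE against 357 in WT and 192 in KO. Mki67, a marker of dividing cells, had 1121 in KOE against 3264 in WT and 1163 in KO, which is 2.91-fold lower in KOE, and Mcm2, a subunit of the replicative helicase, was 2.82-fold lower. Top2a and Ccna2, which act in chromosome separation and in S phase, were 2.32-fold and 2.04-fold lower. The strongest genes of the list lay closer to WT: Pcna, the sliding clamp of DNA polymerase, had 7788 in KOE against 8449 in WT and 9466 in KO, and Mcm7 2351 in KOE against 3417 in WT and 2644 in KO. The count of lower genes was 27 of 42 after scaling to a common median. The cells of the skin from which these transcripts came were not resolved, and the part of the hair matrix in this difference was not tested.

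**Figure D2:**
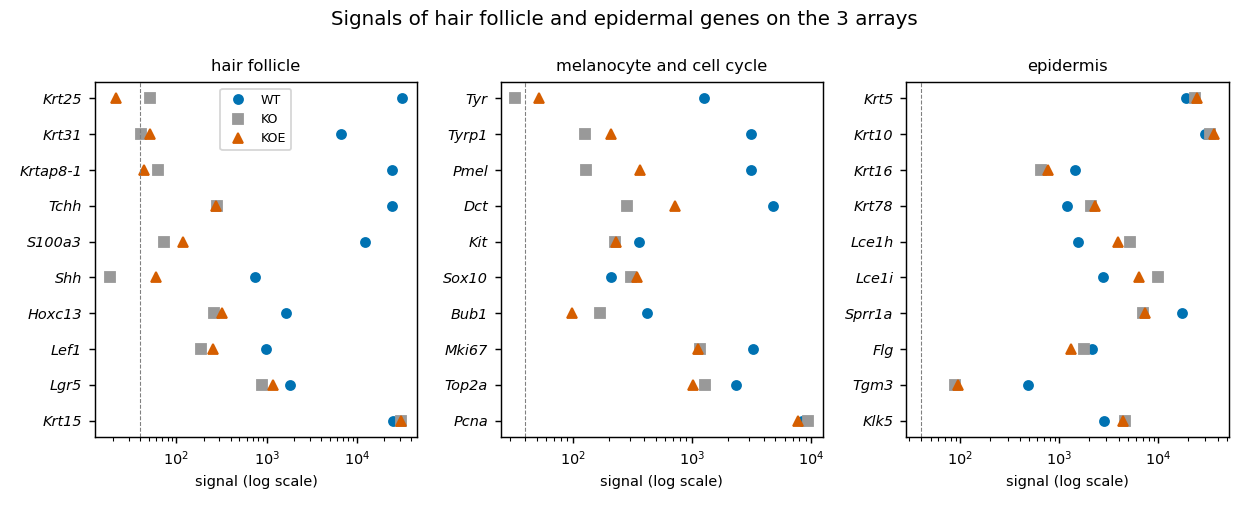
Signals of genes of the hair follicle, of melanocytes and the cell cycle, and of the epidermis, on log axes with a dashed line at 40 (1 array of pooled RNA per group). KOE (triangles) and KO (squares) both lie far below WT (circles) for Krt25, Krt31, Krtap8-1, Tchh, S100a3 and Shh. Krt15, Krt5 and Krt10 nearly coincide on the 3 arrays.

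In the epidermis the main keratins were near equal in the 2 pools. Krt10 and Krt1, of the layers above the basal one, had 36463 in KOE against 29571 in WT and 33694 in KO for Krt10, and 7967 in KOE against 5982 in WT and 6435 in KO for Krt1. Krt78, a keratin of differentiated layers, was 1.96-fold higher, with 2322 in KOE against 1187 in WT and 2072 in KO, and Krt16, made in stressed epidermis and in the follicle's outer root sheath, was 1.86-fold lower, with 774 in KOE against 1443 in WT and 653 in KO. Krt6b, also a stress keratin, was under 40 in WT, with 102 in KOE against 31.4 in WT and 231 in KO.

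Cornified envelope genes went both ways. The envelope is the cross-linked protein shell of the outermost keratinocytes, and late cornified envelope (Lce), small proline-rich (Sprr) and filaggrin-type proteins are among its parts. Of 31 with a ratio 10 were higher, all of the Lce1 family, and 6 were lower. A further 6 genes reached 40 in WT alone and 2 in KOE alone, and with signals under 40 set to 40 the counts were 12 higher and 10 lower of 39. Lce1h and Lce1i had 3936 in KOE against 1548 in WT and 5160.2 in KO for Lce1h, and 6361 in KOE against 2790.1 in WT and 9874 in KO for Lce1i, which is 2.54-fold and 2.28-fold the WT signal, and Lce1f, Lce1a1 and Lce1c were 1.98-fold, 1.93-fold and 1.91-fold the WT signal. These copies are similar in sequence, so the genes are not independent readings. Sprr1a, another envelope protein, was 2.36-fold lower, with 7311 in KOE against 17227 in WT and 7000.0 in KO. Flg, which encodes filaggrin, the protein that bundles keratin, was 1.61-fold lower, and Casp14, a protease that helps to break filaggrin down, 2.01-fold lower. Tgm3, the transglutaminase that cross-links the envelope and the proteins of hair, had 93.9 in KOE against 481 in WT and 88.6 in KO. Dmkn and Krtdap, secreted by differentiating keratinocytes, had 32767 in KOE against 26568 in WT and 33092 in KO for Dmkn, and 33049.6 in KOE against 27489 in WT and 34438 in KO for Krtdap.

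Proteases of the barrier went both ways, and most of its lipid and junction genes lay under 1.5-fold. Klk5, a kallikrein protease that sheds cornified cells, had 4374 in KOE against 2843 in WT and 4567 in KO, and was 1.54-fold higher, while its partner Klk7 had 11662 in KOE against 11991 in WT and 13084 in KO. Spink5, the inhibitor of both proteases, was 1.56-fold higher, with 11910.4 in KOE against 7617 in WT and 14576 in KO. Klk13 had 55.3 in KOE against 278 in WT and 28.8 in KO and Klk6 579.6 in KOE against 1212 in WT and 1405 in KO, both lower. After cyclic loess normalization 0 of 15 kallikreins and inhibitors were higher, so the calls of Klk5 and Spink5 ended, and 3 were lower. Of 30 genes of barrier lipid synthesis, 5 were higher and 1 lower, and 8 were higher after scaling to a common median. Lipn, a lipase of the upper epidermis, was 2.49-fold higher, Sdr9c7, a dehydrogenase for barrier lipids, 2.10-fold higher and Alox12b, the lipoxygenase that opens the same route, 1.75-fold higher, whereas Elovl4, which makes very long chain fatty acids, had 21849.9 in KOE against 18394 in WT and 19076 in KO. Of 24 junction genes, 4 were higher and 1 lower. The higher ones all belong to the anchorage of basal cells to the dermis: Lamb3, a chain of a laminin of the basement membrane, had 2777 in KOE against 1342 in WT and 2814 in KO, Col17a1 and Itgb4, of the hemidesmosome, were 1.67-fold and 1.71-fold higher, and Dst, a linker of the same structure, was 1.58-fold higher. Dsc2, a desmosomal cadherin, was 1.85-fold lower. Without the probe set types that can be shared by several transcripts or genes 1 of 18 junction genes was higher and 1 lower, and Lamb3 and Itgb4 then had no probe set.

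**Figure D3:**
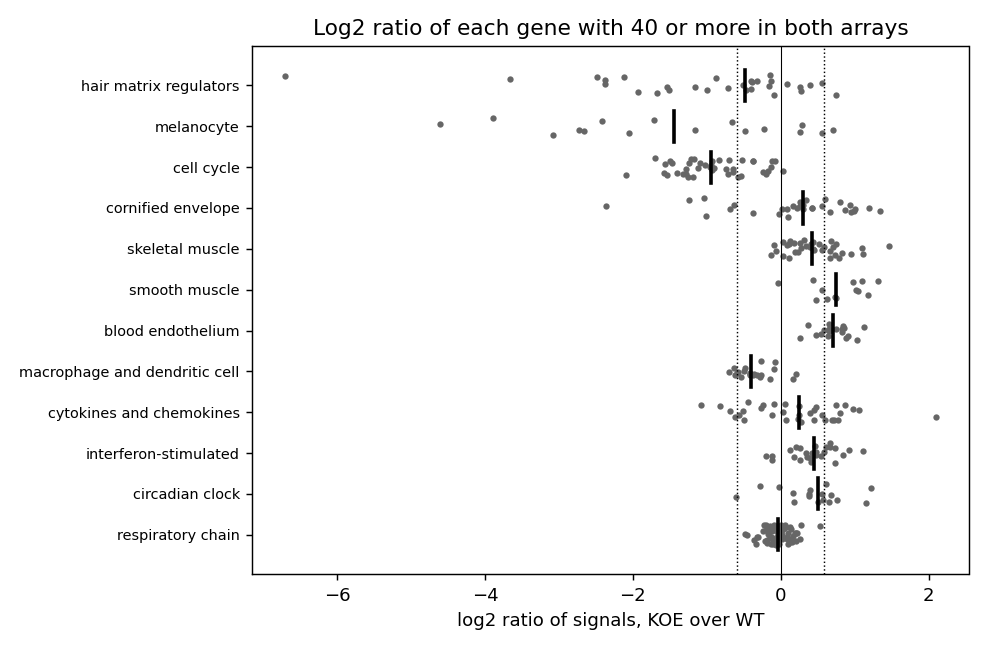
Log2 ratio of KOE over WT for each gene of several lists that had 40 or more in both arrays, with a bar at each list's median and dotted lines at 1.5-fold (1 array per group). Melanocyte and cell cycle genes lie to the left, with medians of −1.44 and −0.94, and smooth muscle and blood endothelium genes to the right, with medians of 0.75 and 0.70.

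Vessel genes were the most uniformly higher group among cell types of the dermis. Of 18 blood endothelium genes 14 were higher and 0 lower, the ratio was above 1 for all 18, and the median log2 ratio was 0.70. Vwf, which encodes von Willebrand factor, had 699.6 in KOE against 320.1 in WT and 615 in KO, and was 2.19-fold higher. Icam2 and Cldn5, an adhesion molecule and a tight junction protein of endothelium, had 408 in KOE against 199 in WT and 238 in KO for Icam2, and 995 in KOE against 527 in WT and 872 in KO for Cldn5. Pecam1, an adhesion molecule of all endothelium, had 732 in KOE against 466 in WT and 674 in KO, and Tek, a receptor for angiopoietins, was 1.68-fold higher. The count was 12 of 17 with the mean over a gene's probe sets, and 16 of 18 with equal array medians. Of 9 lymphatic genes 5 were higher, and 3 after cyclic loess normalization or with all probe sets averaged. Lyve1, a hyaluronan receptor of lymphatics, had 711 in KOE against 378 in WT and 1327 in KO, and Prox1, the factor that sets lymphatic identity, 91.9 in KOE against 43.5 in WT and 80.2 in KO.

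Smooth muscle genes were also higher, 9 of 13 with 0 lower and a median log2 ratio of 0.75. Smooth muscle surrounds vessels and forms the arrector muscle of the hair, and the list does not separate these. Acta2, smooth muscle actin, had 15283 in KOE against 9096 in WT and 14036 in KO. Myh11, its myosin heavy chain, had 3377 in KOE against 1719 in WT and 3138 in KO, and Lmod1, which builds actin filaments, 207 in KOE against 83.2 in WT and 250.1 in KO. Synpo2 and Cnn1, actin-binding proteins, were 2.26-fold and 2.02-fold higher. KO and KOE signals of these genes were similar to each other and above WT.

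Skeletal muscle genes showed another order of the 3 arrays. Of 36 with a ratio 13 were higher in KOE than in WT and 0 lower, with a median log2 ratio of 0.42. With all probe sets of a gene averaged, 10 of 34 were higher and 2 lower. Acta1, the actin of skeletal muscle, had 9799 in KOE against 5093 in WT and 2497 in KO, Mb, myoglobin, 1127 in KOE against 633 in WT and 162 in KO and Ckm, creatine kinase, 2916 in KOE against 1942 in WT and 741 in KO. These were lowest in KO, intermediate in WT and highest in KOE. Myh4, a fast myosin heavy chain, had 3926 in KOE against 4309 in WT and 217 in KO, under 1.5-fold between KOE and WT. Myh1, another fast myosin, had 4804 in KOE against 2229.6 in WT and 2779 in KO, and Jph2, which joins the membranes that release calcium, 353 in KOE against 128 in WT and 179.5 in KO. The 2 probe sets of Jph2 differed, with log2 ratios of KOE to WT of 0.06 and 1.46. The summed signal of the 44 measured genes was 56983 in WT, 27956 in KO and 77670.0 in KOE. Skeletal muscle lies under the skin of the back, and the amount of it in each sample is unknown here.

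Schwann cell genes lay on the higher side, 4 of 12 with 0 lower, and 7 were higher after scaling to a common median. Mbp, a myelin protein, had 5325 in KOE against 2556 in WT and 4635 in KO, and Mag, another, 76.7 in KOE against 47.0 in WT and 65.3 in KO. Adipocyte genes were mixed, with 2 of 17 higher and 5 lower, and 3 lower after scaling to a common median. Adipoq, which encodes the hormone adiponectin, had 1289 in KOE against 2194 in WT and 296 in KO, Fabp4, a fatty acid carrier, 9406 in KOE against 15268 in WT and 4731 in KO, and Lep, leptin, 139 in KOE against 221 in WT and 4.02 in KO. All 3 were lower in KOE, and their KO signals lay lower still. The log2 ratio of Fabp4 was −0.70 at its strongest probe set and −2.62 at its lowest. Pnpla2, a lipase of the fat droplet, was 1.64-fold higher at its strongest probe set, and that direction turned when probe sets of the shared types were left out. Sebaceous gland genes had 0 of 14 higher and 2 lower, and Scd1, a desaturase of sebum, had 27076 in KOE against 24548 in WT and 28790.5 in KO.

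**Figure D4:**
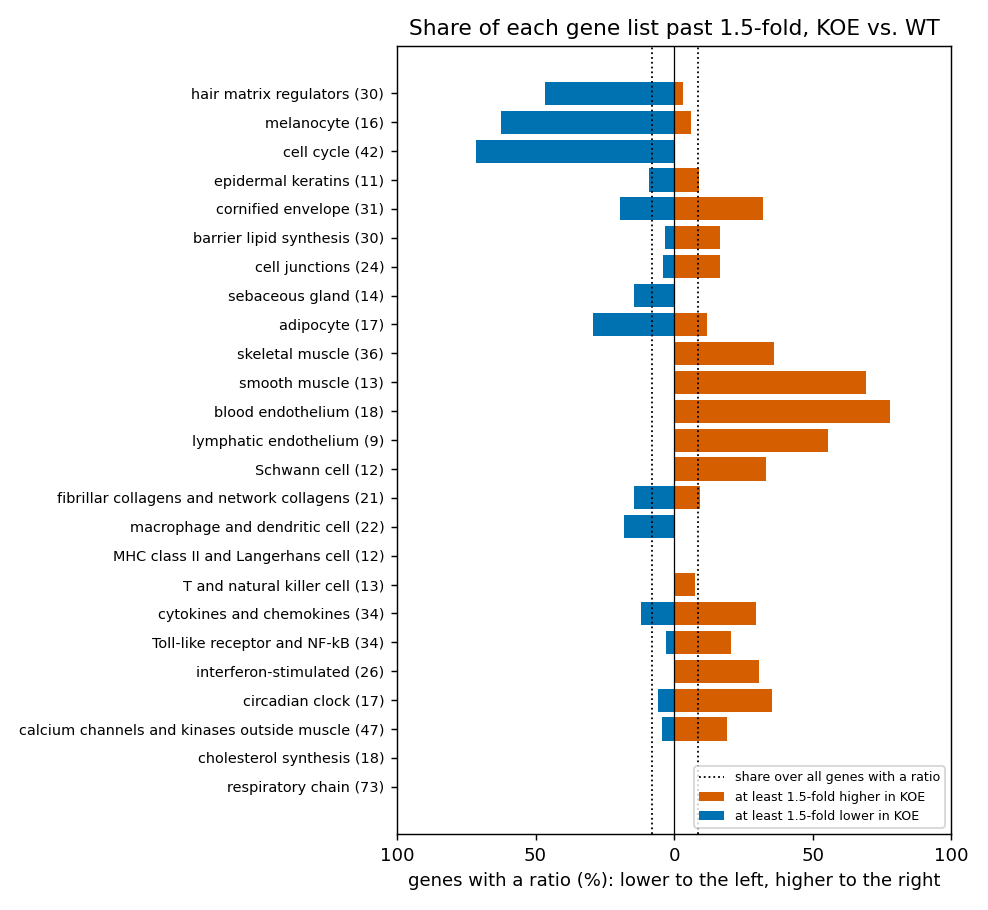
Share of the genes of 25 lists that were at least 1.5-fold higher (right) or lower (left) in KOE than in WT, with the number of genes with a ratio in parentheses, without the inner root sheath, hair shaft keratin and keratin-associated protein lists, whose genes with a ratio were all lower, and with dotted lines at the shares over all genes, 8.55% and 7.83% (1 array per group). Blood endothelium has the largest share of higher genes drawn, 77.8%, and cell cycle the largest share of lower genes drawn, 71.4%.

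The main collagens were near equal in KOE and WT at their strongest probe sets. Col1a1 and Col1a2, the chains of type I collagen, had 16038 in KOE against 16664 in WT and 5880.4 in KO for Col1a1, and 33069 in KOE against 30904 in WT and 26024 in KO for Col1a2, and Col3a1, of type III collagen, had 33914 in KOE against 33961 in WT and 23146 in KO. KO was the lowest of the 3 arrays for each. Probe sets ranged in log2 ratio of KOE to WT from −0.82 to 0.10 for Col1a2 and from −0.46 to −0.002 for Col3a1. Of 21 collagens with a ratio, 2 were higher and 3 lower. Col14a1 and Col11a1, which sit on or in collagen fibrils, were 2.58-fold and 2.47-fold lower, and Col12a1 was 1.96-fold lower at its strongest probe set. The 2 of its 4 probe sets with 40 in both arrays had log2 ratios of −0.97 and −0.91. With all its probe sets averaged, which takes in those under 40, Col12a1 was higher. Col18a1, a basement membrane collagen, had 810.2 in KOE against 1115 in WT and 547 in KO, under 1.5-fold. Among 19 collagen processing genes Plod2, a lysine hydroxylase for cross-links, was the only gene past 1.5-fold, with 64.0 in KOE against 160.5 in WT and 18.0 in KO.

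Other matrix genes went both ways. Tnc, which encodes tenascin-C, a matrix protein of wounds and of the growing follicle, had 192 in KOE against 779 in WT and 79.8 in KO, and Thbs1, thrombospondin, 729.9 in KOE against 1773 in WT and 1222 in KO. Fmod, a proteoglycan that guides collagen fibrils, was 2.41-fold higher, with 2287 in KOE against 948 in WT and 1780.2 in KO. Ccn2, the gene of connective tissue growth factor, had 4175 in KOE against 2227 in WT and 3556 in KO, a 1.87-fold difference, and Ccn1, of the same family, had 1399 in KOE against 770.1 in WT and 3996 in KO. Lum and Dcn, the strongest proteoglycans, had ratios of KOE to WT of 0.791 and 0.933. Mfap4 and Mfap5, of elastic microfibrils, were 2.38-fold and 1.84-fold lower. Has3 and Has1, hyaluronan synthases, were 3.49-fold and 1.83-fold lower, and Has2, the main synthase of fibroblasts, was 1.71-fold higher, with 205 in KOE against 119.7 in WT and 103 in KO. Has3 was close to the limit of 40 in KOE, with 45.5 in KOE against 158.7 in WT and 1.66 in KO. Of 17 matrix proteases and inhibitors Mmp11, a stromal protease, was the only gene past 1.5-fold, 2.37-fold lower.

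**Figure D5:**
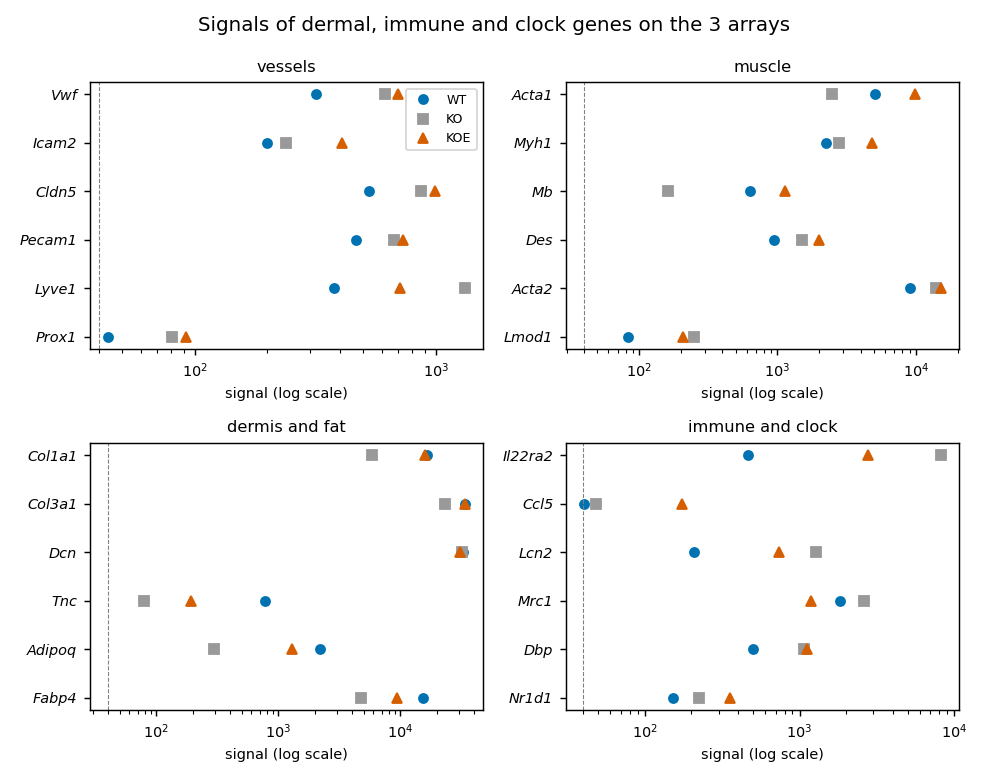
Signals of genes of vessels, muscle, dermis and fat, and of immune and clock genes, on log axes that differ in range, with a dashed line at 40 (1 array of pooled RNA per group). KOE lies above WT for the vessel and muscle genes drawn, Col1a1 coincides in WT and KOE, and Adipoq lies between KO and WT in KOE.

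Most immune cell markers lay under 1.5-fold, and single mediators differed more. IL-10 is a cytokine that restrains macrophages and T cells, and mice that lack it are known for chronic inflammation of the gut. Of 22 macrophage and dendritic cell genes 0 were higher and 4 lower, with a median log2 ratio of −0.40, and 1 was lower after scaling to a common median. The lower genes were Ccr2, a receptor that guides monocytes, Fcgr1, an antibody receptor, and Mrc1 and Cd163, scavenger receptors of resident macrophages. Probe sets ranged in log2 ratio from −0.71 to 0.19 for Ccr2 and from −0.64 to 0.44 for Fcgr1. With all probe sets of a gene averaged, 2 of 22 genes of the list were lower. Mrc1 had 1189 in KOE against 1826 in WT and 2612 in KO and Cd163 677 in KOE against 1017 in WT and 1493 in KO, so that KO was the highest and KOE the lowest. None of the 12 MHC class II and Langerhans cell genes with a ratio was past 1.5-fold, and H2-Aa had 13698 in KOE against 15037 in WT and 12526 in KO. Of 13 T and natural killer cell genes Ctla4 alone was higher, near the limit of 40, with 68.5 in KOE against 43.9 in WT and 76.7 in KO. Many B cell and mast cell genes were under 40. Of 11 mast cell genes 6 had a ratio, and Cpa3, a protease of mast cell granules, had 729 in KOE against 744 in WT and 1404 in KO.

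Among genes of the IL-10 family and its receptors, 3 of 12 were higher and 0 lower. Il22ra2, a soluble receptor that binds and blocks IL-22, had 2757 in KOE against 462 in WT and 8229.6 in KO, which is 5.97-fold higher and the second highest of all genes with a ratio. Il20, a cytokine that acts on keratinocytes, had 119 in KOE against 56.8 in WT and 134 in KO, and Socs3, the feedback inhibitor that such cytokines induce, 906 in KOE against 577 in WT and 1391 in KO. Jak1, the kinase shared by these receptors, had 3029 in KOE against 2225 in WT and 3125 in KO. Each of these was highest in KO, with KOE intermediate.

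Cytokines and chemokines were higher more often than lower, 10 of 34 against 4. With a limit of 100 the counts were 6 and 3 of 26, and without the shared probe set types 9 and 1 of 29. Ccl5, a chemokine for T cells, had 174 in KOE against 40.6 in WT and 48.5 in KO, close to the limit in WT and high in KOE alone. Ccl11, which attracts eosinophils, had 366 in KOE against 210.3 in WT and 655 in KO, Cxcl13, which attracts B cells, 266 in KOE against 159 in WT and 1481 in KO, and Il33, released by injured barrier cells, 1777 in KOE against 1101 in WT and 1822 in KO. Cytokines of the IL-1 family made by keratinocytes, Il1f9, Il1f6 and Il1f5, were 1.83-fold, 1.72-fold and 1.52-fold higher, and Il1a was 1.96-fold higher. Il1b, from myeloid cells, was 1.53-fold lower, with 142 in KOE against 218 in WT and 486 in KO, and Ccl8, the chemokine of resident macrophages and the strongest signal of the list, 1.60-fold lower. Of 12 neutrophil and antimicrobial genes, 3 were higher and 4 lower, and 2 of 8 were lower with a limit of 100. Lcn2, a lipocalin that withholds iron from bacteria, had 741 in KOE against 209 in WT and 1282 in KO. S100a8 and S100a9, partners in the protein calprotectin, went apart, with 293 in KOE against 982 in WT and 815 in KO for S100a8 and 282 in KOE against 187 in WT and 550.2 in KO for S100a9.

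The Toll-like receptor and NF-κB, interferon-stimulated and immediate early lists held more higher than lower genes. Their shares of higher genes were 20.6%, 30.8% and 25%, against 8.55% over all genes. Most genes of each list lay under 1.5-fold. Of 34 genes for Toll-like receptors and NF-κB, 7 were higher and 1 lower, and the counts were 10 and 0 of 33 after scaling to a common median. Relb and Rela, subunits of NF-κB, had 502 in KOE against 243 in WT and 380.1 in KO for Relb, and 2140.0 in KOE against 1390.0 in WT and 2048 in KO for Rela, and Nfkbia, the inhibitor that NF-κB induces, 13698 in KOE against 7915 in WT and 15062 in KO. Rel, another subunit, was near the limit of 40 in WT, with 131 in KOE against 42.5 in WT and 177 in KO. Of 26 interferon-stimulated genes 8 were higher and 0 lower, with a median log2 ratio of 0.45. Ifit1 and Rsad2, antiviral effectors, had 145 in KOE against 67.3 in WT and 134 in KO for Ifit1, and 418 in KOE against 221 in WT and 516 in KO for Rsad2. Psmb8, Psmb9 and Tap1, which prepare peptides for antigen presentation, were 1.66-fold, 1.52-fold and 1.79-fold higher. Of 28 immediate early genes, which respond within minutes to stress and to tissue handling, 7 were higher and 2 lower. Atf3, a stress factor, had 715 in KOE against 207 in WT and 1573 in KO, Nr4a1, a nuclear receptor, 948 in KOE against 495 in WT and 3580.3 in KO, and Dusp2, a phosphatase of MAP kinases, 98.5 in KOE against 595 in WT and 137 in KO. None of 17 heat shock genes was past 1.5-fold.

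Acute phase genes were measured in part, since 9 of 23 measured genes had a ratio. Hp, haptoglobin, was 3.85-fold lower, with 707 in KOE against 2724 in WT and 249 in KO, and Hamp, which encodes hepcidin, the regulator of iron, 2.13-fold higher, with 417 in KOE against 196 in WT and 517 in KO. The glycoprotein gene Orm1 had 7033 in KOE against 4722 in WT and 10594 in KO. Ttr, which encodes transthyretin, a carrier made by liver and choroid plexus, had 586 in KOE against 4.17 in WT and 1594 in KO, at least 14.7-fold higher in KOE when WT is set to 40. Its other probe sets with 40 in both arrays had log2 ratios from 2.64 to 3.51.

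The growth factor lists did not share a direction, and EGF and FGF genes leaned to the higher side. Tgfb1, Tgfb2 and Tgfb3, the transforming growth factors β, had KOE to WT ratios of 1.25, 0.982 and 1.35, and Pdgfb, a platelet-derived growth factor, 1.34, all under 1.5-fold at the strongest probe set. Probe sets ranged in log2 ratio from −0.85 to −0.03 for Tgfb2 and from 0.42 to 0.87 for Pdgfb, so each had a probe set past 1.5-fold. Bambi, a decoy receptor of the transforming growth factor β family, had 461 in KOE against 2001 in WT and 339.6 in KO. Of 29 Wnt genes, 2 were higher and 7 lower, and 3 of the lower ones, Lef1, Wnt11 and Wnt5a, are also in the hair matrix list. After scaling to a common median 4 Wnt genes were lower, and with all probe sets averaged 4 of 24 were higher. Wnt7a had 98.9 in KOE against 80.5 in WT and 64.4 in KO. Of 25 EGF and FGF genes, 7 were higher and 3 lower, with a median log2 ratio of 0.38, and 11 of 24 were higher after scaling to a common median. Fgf1 had 402 in KOE against 270.2 in WT and 214 in KO, just under 1.5-fold, and Fgf5, the signal that ends anagen, had 42.8 in KOE against 137 in WT and 28.2 in KO. Errfi1, a feedback inhibitor of the EGF receptor, had 4024 in KOE against 2578 in WT and 7076 in KO, and Epgn, a ligand of that receptor, 702 in KOE against 454 in WT and 2801 in KO. Tert, the catalytic subunit of telomerase, was at 44.4 in KOE against 7.26 in WT and 17.1 in KO, under the limit of 40 in WT and KO.

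Of 47 calcium channel and calcium kinase genes outside muscle, 9 were higher and 2 lower. With all probe sets averaged the counts were closer, 6 higher and 4 lower of 41. Trpv6, an epithelial calcium channel, had 84.1 in KOE against 360.2 in WT and 49.3 in KO, and was 4.29-fold lower in KOE than in WT. Trpv4, a channel opened by warmth and stretch, had 203 in KOE against 248 in WT and 139.8 in KO, under 1.5-fold. Orai1, the channel that refills calcium stores, had 1068 in KOE against 655 in WT and 946 in KO, Itpr3, a release channel of those stores, 3792 in KOE against 2269 in WT and 3562 in KO, and Camk2d, a calmodulin kinase, 1133 in KOE against 619 in WT and 1028 in KO. KO and KOE signals were close to each other for these 3 genes. The 7 probe sets of Camk2d ranged in log2 ratio of KOE to WT from −0.20 to 0.87. Orai2 was 1.63-fold lower, and Cacna1a, a voltage-gated channel near the limit in WT, had 77.4 in KOE against 41.5 in WT and 41.3 in KO.

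Clock genes were higher in part. The circadian clock is a loop in which Bmal1 and Clock raise Per and Cry genes, whose proteins then inhibit them, and E-boxes with the letters CACGTG are the sites they bind. Of 17 genes, 6 were higher and 1 lower, with a median log2 ratio of 0.50, and 9 were higher after quantile normalization. Nr1d1 and Dbp, outputs of the loop that peak in daytime, had 354 in KOE against 153 in WT and 223 in KO for Nr1d1, and 1115 in KOE against 502 in WT and 1063 in KO for Dbp. Per1, which light and stress also raise, had 824 in KOE against 485 in WT and 1207 in KO, and Nfil3, which opposes Dbp, was 1.52-fold lower. Of the 16 clock genes with a promoter window, 5 held CACGTG, which reads the same on both strands. The share was 8.09% of all genes and 11.3% of the genes with a ratio. Other lists also held CACGTG often, in 4 of 15 cholesterol synthesis genes, 6 of 24 immediate early genes and 3 of 12 melanocyte genes. Among interferon-stimulated genes, 0 of 23 held CACGTG. The window of Per1 that holds it, at chr11:69098699-69098998 on the plus strand of GRCm38.p6, is shown with the E-box in capitals because Per1 was the only Per gene past 1.5-fold.
Per1: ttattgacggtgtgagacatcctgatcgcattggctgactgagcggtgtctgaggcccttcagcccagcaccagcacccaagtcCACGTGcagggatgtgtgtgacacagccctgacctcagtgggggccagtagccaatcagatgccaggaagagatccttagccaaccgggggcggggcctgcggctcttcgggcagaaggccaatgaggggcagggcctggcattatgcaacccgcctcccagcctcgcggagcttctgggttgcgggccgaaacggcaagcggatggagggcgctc
The E-box began 166 bases before the start. Clock transcripts cycle over the day in skin, and as stated the hours of collection are unknown here.

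Genes of housekeeping groups mostly lay under 1.5-fold. Their signals were strong, with WT medians of 6004 for respiratory chain, 2470 for cholesterol synthesis and 24731 for ribosomal protein genes. The WT median of blood endothelium genes was 286, so the housekeeping groups set no scale for weaker lists. None of 73 respiratory chain genes and none of 18 cholesterol synthesis genes was past 1.5-fold, with median log2 ratios of −0.04 and 0.20. Of 42 ribosomal protein genes 1 was higher and 3 were lower, and Rps29, read from a probe set of a shared type, had 42058 in KOE against 40713 in WT and 40407 in KO. Without the shared probe set types 20 ribosomal protein genes had a ratio, of which 1 was higher and 5 (25%) were lower. Of 17 senescence and p53 genes 0 were higher and 1 lower, namely Lmnb1, a lamin of the nuclear envelope, with 396 in KOE against 643 in WT and 564 in KO. Of 25 oxidative stress genes, 1 was higher and 4 lower. Mt4, a metallothionein of stratified epithelium, and Gpx2 and Gpx3, glutathione peroxidases, were 2.94-fold, 2.94-fold and 2.09-fold lower, while Mt1 had 11847 in KOE against 11800.4 in WT and 14318 in KO.

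Several of the genes with the highest ratios lie on chromosome 1, which carries Il10. Ap1s3, a subunit of the clathrin adaptor AP-1 and the gene with the highest ratio, had 1230.3 in KOE against 87.0 in WT and 968 in KO, and was 14.1-fold higher. Wdfy1, its next neighbour in the RefSeq gene order, had 985 in KOE against 285 in WT and 699.9 in KO, and 3 of its 5 probe sets had 40 in both arrays, with log2 ratios from 1.18 to 2.41. Pam, an enzyme that amidates peptide hormones, had 3160.4 in KOE against 620.5 in WT and 2747 in KO, and Ppfia4, a scaffold protein, 269 in KOE against 59.0 in WT and 261 in KO. For each of these 4 genes KO and KOE were nearer to each other than to WT. Ppfia4 ranged from −0.77 to 2.19 across its probe sets. Of all genes with a ratio 5.80% lay on chromosome 1, and of the 15 genes with the highest ratios, 5 lay on chromosome 1. In the RefSeq gene order Ap1s3, Wdfy1, Pam and Ppfia4 lie 638, 637, 289 and 106 places from Il10. Atf3, described above and also among the 15, lies 1132 places from it. Over the whole chromosome 8.43% of 771 genes were higher and 8.82% lower, near the shares over all genes. The mutant Il10 allele was made in another strain, as the name B6.129P2 of the line states, so the KO line can carry sequence of that strain near Il10 and elsewhere. Alleles were not measured, and what probe mismatches or strain differences contribute was not tested.

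Near Il10 itself, the 50 genes on either side in the RefSeq order were read. Of these 100 genes 51 were measured, 34 had a ratio, 3 were higher and 7 lower, with a median log2 ratio of −0.12. The higher share, 8.82%, was near the 8.55% over all genes, and the lower share was 20.6% against 7.83%. With signals under 40 set to 40, 5 were higher. Ctse, a protease of the endosome that lies 16 places away, had 203 in KOE against 2735 in WT and 237 in KO, and Pm20d1, 20 places away, 102 in KOE against 334 in WT and 63.9 in KO. Rab7b, a vesicle GTPase between them, was 2.61-fold lower at its strongest probe set, while its probe sets ranged from −1.39 to 0.62. Those of Ctse ranged from −3.75 to −0.74. The strongest genes of the region, Nucks1 and Elk4, had ratios of 1.07 and 1.07, and Il20, described above, also lies here.

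The remaining genes at the upper end were weak in WT. Besides those above, the 15 highest ratios belonged to Gm3715 (306 in KOE against 72.3 in WT and 113 in KO), Hoxa10 (256 in KOE against 63.7 in WT and 149.5 in KO), a homeobox gene of the trunk and limbs, 2310043M15Rik (363 in KOE against 101 in WT and 490.0 in KO), Fam107a (162 in KOE against 46.1 in WT and 273 in KO), Rasd1 (383 in KOE against 115 in WT and 417 in KO), a small GTPase raised by glucocorticoids, and Pmf1 (290.3 in KOE against 88.0 in WT and 276 in KO), a part of the kinetochore. Of genes under 40 in WT, 2 had a KOE signal of at least 10 times that limit, namely Ttr and Il10. Next in KOE signal came 1190005I06Rik, Hlx, Sprr2k and Mm2pr, with 197, 161, 144 and 143. At the other end, 61 genes under 40 in KOE had a WT signal of at least 10 times that limit.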

How the data were processed

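Pooled RNA (250 ng) of each group was amplified with a 3′ IVT kit and hybridized to an Affymetrix mouse genome array. The authors deposited linear signal intensities obtained with R ver. 3.5.1 and the Affymetrix MAS software. Their 2% trimmed mean was checked to be 500 on every array. Per-array medians were 116, 96.3 and 108 in WT, KO and KOE, and 30769, 29390 and 31298 probe sets reached 40. Detection calls and scan dates were not analysed here, and 1 array per group limits the precision.

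Of 45037 probe sets, 34945 had 1 gene in the platform annotation, 932 several and 9160 none, and 34754 were updated by gene ID from RefSeq. Each gene is represented by the probe set that was strongest on average over the 3 arrays, and signals were not rescaled. The limits of 1.5-fold and a signal of 40 are those of the study's methods, and that both arrays must reach 40 was chosen here. Lists and members were chosen with earlier results of these data known. Named genes were Il10, the 15 highest and 15 lowest ratios, the 10 strongest on 1 side with the other array under 40, genes the paper names, and of each of 48 lists and the neighbours of Il10 the 2 strongest and 3 most different, with further members as examples. Trpv3 has no probe set with 1 gene name here. The calling step was run on simulated arrays with 2-fold changes in genes well above 40 in WT, and with less noise than these arrays show. That run checks the code and not the calls reported here. The tools were Python 3.11.15 with numpy 2.4.6, pandas 2.3.3, scipy 1.17.1 and matplotlib 3.10.9, and R 4.3.3 (limma 3.58.1).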

Additional observations from a re-analysis of the deposited data

How the results depend on the processing

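With 1 array per group no replicate could be left out. No paired analysis was possible because each group has 1 array. The counts of 1140 higher and 1043 lower genes became 201 and 427 at 2-fold, with 32.0% of them higher, and 2350 and 3224 when probe sets were counted, with 42.2% higher. Scaling to a common median gave 1672 and 794, with 67.8% higher, and the other alternatives stayed within 1.5 times of both counts. Lymphatic endothelium went from 5 to 3 higher genes after cyclic loess normalization and to 3 with the mean of all probe sets, and cytokines and chemokines from 10 to 6 at a signal limit of 100. With signals under 40 set to 40, the median log2 ratio was −8.00 for inner root sheath, −6.82 for hair shaft keratins and −7.28 for keratin-associated proteins. Of 151 named genes past 1.5-fold, 139 of 147 stayed past it after common median scaling and 125 of 139 with all probe sets averaged. The log2 ratio reversed for Col12a1 (1.30), Reln (−0.77) and Fgfr4 (−0.28) with all probe sets averaged, and for Pnpla2 (−0.46) without the shared probe set types. The averages take in probe sets under 40 in 1 array or both, and the reversals rest on those. At 40 in both arrays Col12a1 had 2 of 4 probe sets, with log2 ratios of −0.97 and −0.91, and Reln 1 of 2, at 0.98. Fgfr4 had 4 of 5, from −0.11 to 1.13. Why probe sets of 1 gene differ was not tested.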

Other observations

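Probe sets without a gene name here leaned further to the lower side than named ones. Of 3878 unnamed probe sets with 40 or more in both arrays, 290 (7.48%) were at least 1.5-fold higher in KOE than in WT and 937 (24.2%) at least 1.5-fold lower. Of 24274 probe sets with 1 gene name the shares were 8.26% and 9.24%. The median over probe sets of the mean signal on the 3 arrays was 119.8 for the unnamed and 403 for the named ones, so the groups also differ in brightness, and the part of brightness in these shares was not tested.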
